A study of Mus musculus with 9 samples.

Results

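A set of 2103 genomic regions was listed with acetylation of lysine 27 of histone H3 (H3K27ac) in a mouse pancreatic cancer line with Kdm6a. These regions were in the H3K27ac list of neither of 2 lines without Kdm6a. They were chosen by joining the H3K27ac lists of the 3 lines wherever regions overlapped on chromosomes 1 to 19, and by keeping the joined regions that the list of the line with Kdm6a overlaps by at least 1 bp and neither other list does. They make up 8.06% of the 26106 joined regions and 10.6% of the 19747 regions in the list of the line with Kdm6a, and each of them is 1 region of that list. They are called WT-only regions here. The absence from the lists chose them, so their H3K27ac values are a description. H3K4me3 and H3K27me3 were not used in the choice.

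Kdm6a, also known as Utx, is an X-linked gene for an enzyme that takes methyl groups off lysine 27 of histone H3. The same lysine can be acetylated instead, and a lysine holds 1 kind of mark at a time. H3K27ac is known from active enhancers and promoters, H3K4me3 (trimethylation of lysine 4) from promoters, and H3K27me3 (trimethylation of lysine 27), the mark laid down by Polycomb complex PRC2, from silenced genes. Kdm6a is also known as a partner of the methyltransferases that act at enhancers, and loss of the human gene is found in pancreatic cancers.

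The 9 libraries came from chromatin immunoprecipitation and sequencing (ChIP-seq) of 3 marks in 3 lines: a female line without Kdm6a (female knockout, or female KO), a male line without Kdm6a (male knockout, or male KO) and a male line with Kdm6a (WT). They were derived from the pancreas of mice on a mixed C57BL/6-SV129 background, grew in F12/DMEM with EGF and had no treatment. The other alleles that the tumours carry, the way Kdm6a was deleted and the age of the mice were not stated in the sources used here. Each genotype and sex is 1 line with 1 library per mark, and there is no female line with Kdm6a, so no p-value was computed, no difference has a replicate check, and sex, line and genotype cannot be told apart. Between 2396174 and 18507923 reads fell in the listed regions of a library. The H3K27ac lists held 12295125 reads in the female knockout line, 11023981 in the male knockout line and 3989395 in WT. In the bins of 200 bp that all 3 H3K27ac lists hold, the female knockout library had 1.80 times and the male knockout library 2.23 times the WT reads. Genes were not placed on the build of the lists, mm9, so neither the deletion nor pancreatic marker genes were checked, and regions are named by position. Shares of regions are followed by their 95% Wilson intervals, which take each region as independent and cover only counting error.

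WT-only regions were narrow and weakly acetylated in WT. Their median width was 2.8 kb (95% interval of the median 2.8 to 3 kb), against 4.4 kb for the other 17644 WT regions, those that at least 1 KO list overlaps. The narrowest WT-only region was 0.4 kb and the widest 18.6 kb, with quartiles of 1.8 and 4.2 kb. Their median density was 20.4 H3K27ac reads per kb in WT (20 to 20.7), against 31.3 for the other WT regions, with extremes of 10.3 and 58.3. They held 6.38% of the length of the WT list and 3.92% of its reads. By width, 19.2% of the WT regions of at most 2.8 kb were WT-only (18.2 to 20.2%), against 2.75% of those of 6.8 kb or more (2.32 to 3.25%). By density, 28.1% of the WT regions of at most 22.7 reads per kb were WT-only, against 0.609% of those of 39.3 reads per kb or more.

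**Figure D1:**
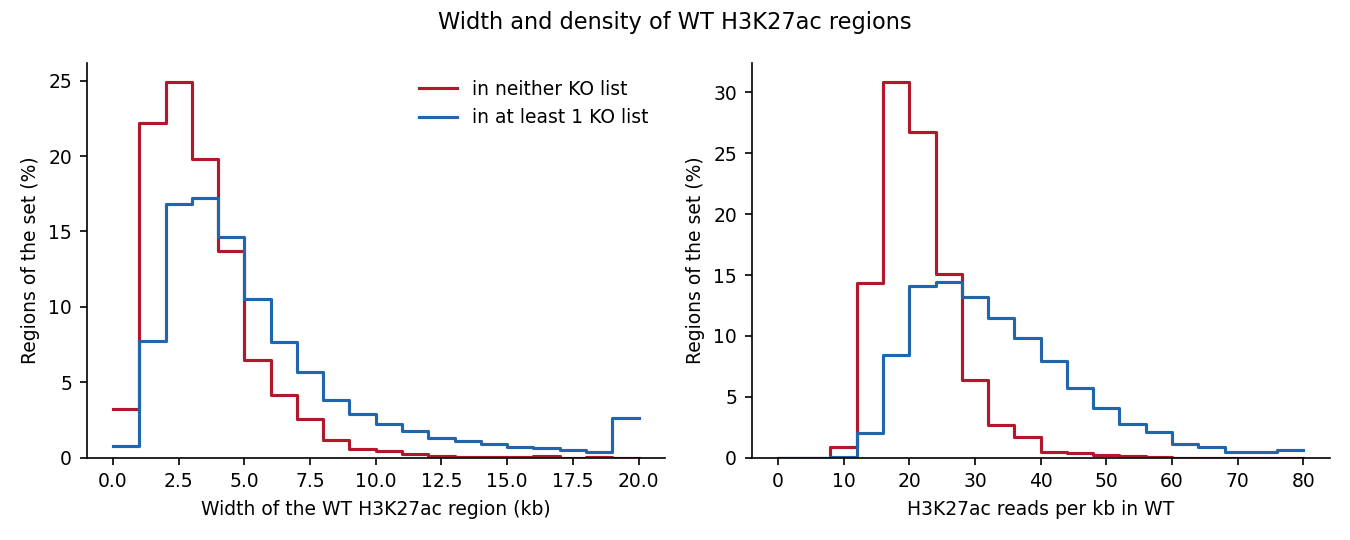
Width in kb (left) and H3K27ac reads per kb in WT (right) of the 2103 WT regions in neither KO list and the 17644 in at least 1 KO list, as the percentage of each set per bin; the last bin also holds all larger values. The WT-only regions peak at lower width and lower density, with medians of 2.8 kb and 20.4 reads per kb against 4.4 kb and 31.3 reads per kb.

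WT regions found in 1 KO list lay between these sets. Those overlapped by the female knockout list alone numbered 1134, with medians of 3.8 kb and 23.2 reads per kb. Those overlapped by the male knockout list alone numbered 2310, with medians of 3.4 kb and 23.0 reads per kb. The 14200 overlapped by both KO lists had medians of 4.6 kb and 33.7 reads per kb.

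The WT levels were also set on the scale of the KO libraries, as a description, since the same lists chose the regions. Multiplied by the ratio of reads in shared bins, the median density of the WT-only regions would be 36.6 reads per kb on the scale of the female knockout library and 45.5 on that of the male knockout library. The 5th percentile of the densities in these lists was 25.5 and 29.4 reads per kb. With the count of reads also set against its 5th percentile, 78 reads in the female knockout list and 56 in the male knockout list, 64.1% of the WT-only regions passed both limits on the female knockout scale (62.0 to 66.1%) and 85.8% on the male knockout scale (84.3 to 87.3%). Of the other WT regions 92.5 and 98.1% passed.

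WT-only regions lay at all distances from KO acetylation, and few missed a KO region narrowly. The nearest H3K27ac region lay at a median of 26.2 kb in the female knockout list, 17.6 kb in the male knockout list and 13.8 kb in whichever was nearer. In 52.6% of the WT-only regions no KO H3K27ac region lay within 12500 bp (50.5 to 54.8%), and in 9.32% none lay within 100 kb. The first share was 46.0% where a KO cover of under 50% of the region counted as absence, and 44.6% among WT regions of at least the median count. At the other end, 525 had one closer than 5 kb, 104 closer than 1 kb, and 13 touched one without a shared base. Just inside the rule, the 70 WT-only regions at most 600 bp from a KO region had a median gap of 400 bp, a median width of 2.9 kb and 19.4 reads per kb. Just outside it, 103 WT regions were overlapped over at most 600 bp, and were short, with medians of 0.6 kb and 25 reads per kb. Those overlapped over less than 10% of their width numbered 14, with medians of 3.9 kb and 19.1 reads per kb. At 40 to 50 kb from the midpoint, 13.3% of positions lay in a female knockout H3K27ac region and 11.01% in a male knockout region, against 25.7 and 18.0% around the WT regions in both KO lists. In WT itself the 2 surroundings were closer, at 12.3 and 13.8%.

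WT-only regions stood next to each other in part. Of the 2103, 968 had at least 1 neighbour in the WT list that was also WT-only, and 222 were in 50 runs of 4 or more. No such counts were made for other sets of WT regions. Whether these counts exceed what a share of 10.6% of the WT list would give was not tested. The longest runs held 7 regions, and 4 runs had that length. One on chromosome 1 from 136055801 to 136189400 overlapped H3K27me3 at 7 of its regions in the female knockout list, 7 in the male knockout list and 5 in WT. On chromosome 4 from 62832001 to 63030000 the numbers were 6, 4 and 0. On chromosome 8 from 36036601 to 36416400 they were 2, 0 and 0, and the run on chromosome 10 from 23559801 to 23750400 overlapped H3K27me3 in no list. Runs of more than 100 kb in which no KO H3K27ac list overlapped the WT regions were thus of several kinds. They included loci with H3K27me3 in the KO lists, loci that had it in WT too, and loci without it.

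H3K4me3 was uncommon at WT-only regions. In the female knockout list 68 of them overlapped H3K4me3, 3.23% (2.56 to 4.08%), in the male knockout list 98, 4.66% (3.84 to 5.65%), and in WT 260, 12.4% (11.02 to 13.8%). Over all WT H3K27ac regions these shares were 50.7, 52.1 and 57.8%. The share in WT was 22.7% at regions overlapped by the female knockout list alone and 27.3% at those overlapped by the male knockout list alone. It was 72.3% at regions overlapped by both KO lists, and the WT-only regions differed from these by -59.9 percentage points (-61.5 to -58.3). No H3K4me3 of any line overlapped 1835 of the WT-only regions, 87.3% (85.8 to 88.6%), against 40.03% of all WT H3K27ac regions. In bins shared by all 3 H3K4me3 lists, the female knockout library had 1.08 times and the male knockout library 0.683 times the WT reads, and the part of depth in these shares was not tested.

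The 260 WT-only regions with H3K4me3 in WT were mostly without it in the KO lines. H3K4me3 was absent from the female knockout list at 198 of them, 76.2% (70.6 to 80.9%), and from the male knockout list at 164, 63.1% (57.1 to 68.7%). Over all WT H3K27ac regions with H3K4me3 in WT, 14.7% lacked it in the female knockout list and 11.6% in the male knockout list. At 155 of the 260 it was in WT alone, at 43 in WT and male knockout, at 9 in WT and female knockout, and at 53 in all 3 lines. The H3K4me3 regions at the 260 were small, with a median of 2.5 kb and 47.1 reads per kb in WT, against 5 kb and 132 reads per kb over the WT H3K4me3 list. WT-only regions with H3K4me3 in WT alone were a little wider and denser in H3K27ac than the set as a whole, with medians of 4 kb and 23.8 reads per kb. Where the acetylation was absent from 1 KO list alone, H3K4me3 was absent more often from the H3K4me3 list of that line. At WT regions held by the male knockout list alone, 65.6% of those with H3K4me3 in WT lacked it in the female knockout list (61.8 to 69.2%). In the male knockout list 33.4% lacked it (29.9 to 37.2%). At those held by the female knockout list alone the shares were 36.2% in the female knockout list and 54.1% in the male knockout list.

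H3K27me3 was more frequent at WT-only regions than at other WT regions in each KO list. In the female knockout list it overlapped 583 WT-only regions, 27.7% (25.9 to 29.7%), in the male knockout list 244, 11.6% (10.3 to 13.0%), and in WT 38, 1.81% (1.32 to 2.47%). Over all WT H3K27ac regions the shares were 18.3, 5.57 and 1.40%. At WT regions held by the male knockout list alone, the share in the female knockout list was 28.2%, as high as at WT-only regions. At those held by the female knockout list alone, the share in the male knockout list was 9.08%. H3K27me3 of no list overlapped 1500 of the WT-only regions, 71.3% (69.4 to 73.2%), against 81.3% of all WT H3K27ac regions. It was in female knockout alone at 358 WT-only regions, 17.0%, against 12.9% of all WT regions. It was in male knockout alone at 20, 0.951%, against 0.375%, in both KO lists and not WT at 187, 8.89%, against 4.06%, and in all 3 lists at 37, 1.76%, against 1.11%. The KO comparisons share the WT list. The H3K27me3 lists covered 329 Mb in the female knockout line, 237 Mb in the male knockout line and 145 Mb in WT on chromosomes 1 to 19. In bins shared by all 3, the female knockout library had 3.82 times and the male knockout library 1.31 times the WT reads, and the part of depth in the order of the lines was not tested. Neither mark of any line was found at 1355 WT-only regions, 64.4% (62.4 to 66.4%), against 32.7% of all WT H3K27ac regions.

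**Figure D2:**
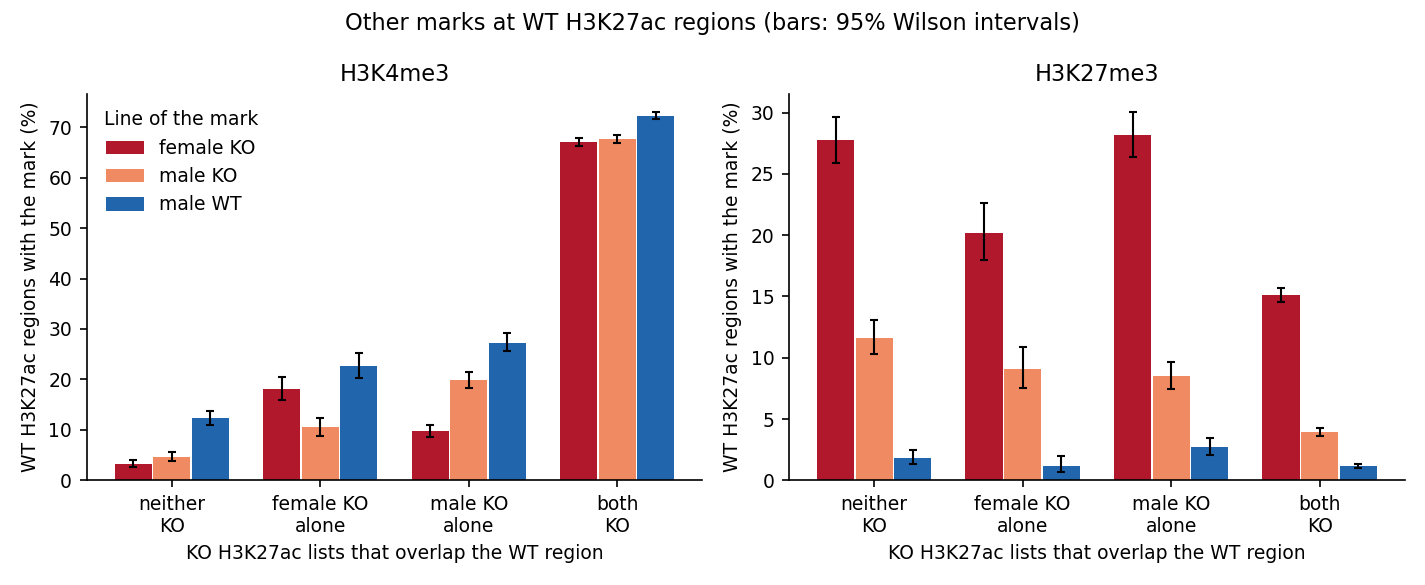
Percentage of WT H3K27ac regions that overlap H3K4me3 (left) or H3K27me3 (right) of the female knockout, male knockout and male WT lines, by the KO H3K27ac lists that overlap the region; bars are 95% Wilson intervals, n = 2103, 1134, 2310 and 14200 regions. H3K4me3 is lowest and male knockout H3K27me3 highest at the regions in neither KO list, and female knockout H3K27me3 is at 27.7% of regions in neither KO list and 28.2% of regions in the male knockout list alone.

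The loss of an H3K27 demethylase raises the question of how often acetylated regions gain H3K27me3. H3K27me3 in a KO list and not in WT was found at a minority of the WT-only regions. It was at 545 of them in the female knockout line, 25.9% (24.1 to 27.8%), and at 207 in the male knockout line, 9.84% (8.64 to 11.2%). Over all WT H3K27ac regions this was 17.0% in the female knockout line and 4.44% in the male knockout line. The difference from the other WT regions was 10.02 percentage points in the female knockout line (8.11 to 12.01) and 6.05 in the male knockout line (4.82 to 7.43), by Newcombe intervals of 95%, which cover counting error only. Among WT regions of at least the median count, 271 of which were WT-only, these differences were 19.6 and 10.2 points. For the female knockout line, the WT regions that lack female knockout acetylation but are held by the male knockout list had a share of 25.6% (23.9 to 27.4%), and the WT-only regions differed from it by 0.29 points, with an interval that includes 0 (-2.29 to 2.87). The WT regions held by the female knockout list alone had 19.05% (16.9 to 21.4%), and the WT-only regions lay 6.87 points above these (3.86 to 9.77). For the male knockout line, the WT-only regions lay 3.44 points above the regions held by the male knockout list alone (1.83 to 5.07) and 1.91 points above those held by the female knockout list alone, with an interval that includes 0 (-0.19 to 3.87).

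The difference between WT-only and other WT regions was found in each of the classes of width and of density. In WT regions under 2 kb, H3K27me3 in the female knockout list and not in WT was at 20.2% of the WT-only and 15.2% of the other regions. At 6 kb or more it was at 36.6% (30.3 to 43.5%) and 17.7% (16.7 to 18.7%). In the male knockout list it was at 8.22 and 3.33% under 2 kb, and at 16.3% (11.9 to 22.1%) and 4.47% (3.96 to 5.04%) from 6 kb. By density the sets lay further apart in dense regions. Below 20 reads per kb, 22.6% of the WT-only and 16.1% of the other regions carried it in the female knockout line, and from 30 reads per kb 34.9% (28.2 to 42.2%) and 15.1% (14.4 to 15.8%). In the male knockout line these were 8.67 and 5.14% below 20 reads per kb, and 13.1 and 3.12% from 30. The class from 30 reads per kb held 175 WT-only regions.

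**Figure D3:**
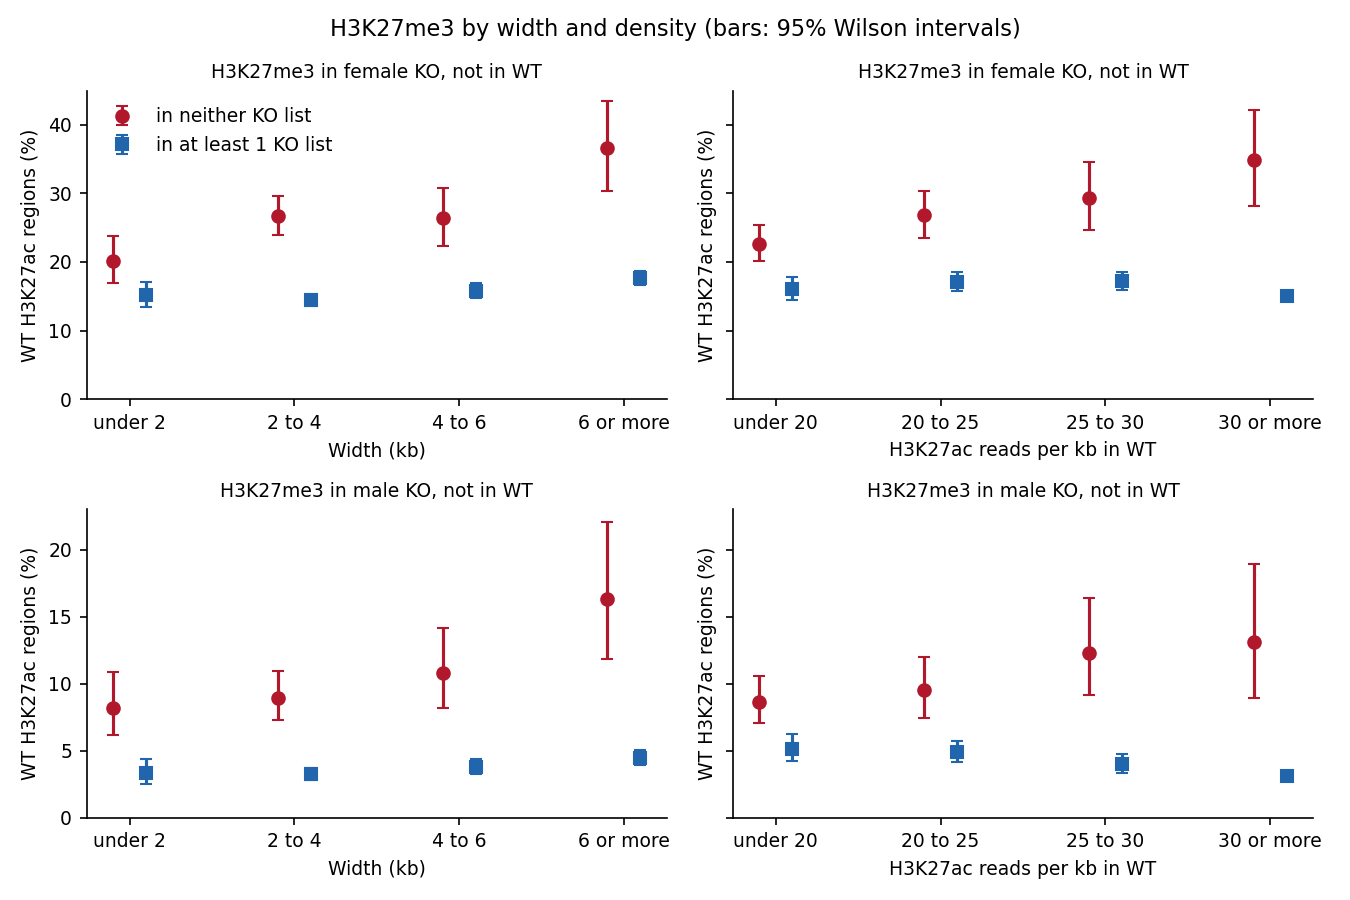
Percentage of WT H3K27ac regions with H3K27me3 in the female knockout (top) or male knockout line (bottom) and not in WT, by width in kb (left) and by H3K27ac reads per kb in WT (right); bars are 95% Wilson intervals. Circles are regions in neither KO list and squares regions in at least 1, and the circles lie above the squares in every class, by the most in the widest and densest. The squares take regions in 1 KO list and in both together.

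WT-only regions with H3K4me3 in WT carried H3K27me3 more often than the others. Of the 260, 43.5% overlapped it in the female knockout list (37.6 to 49.5%), 26.5% in the male knockout list (21.5 to 32.2%) and 5.38% in WT (3.23 to 8.83%). Of the 1843 without H3K4me3 in WT, 25.5% (23.6 to 27.5%), 9.495% (8.24 to 10.9%) and 1.30% did. The 155 with H3K4me3 in WT and in neither KO list had lower shares than the 260. H3K27me3 overlapped 31.0% of these 155 in the female knockout list (24.2 to 38.6%) and 18.7% in the male knockout list (13.4 to 25.6%). The share also moved with the distance from KO acetylation, in opposite ways in the KO lines between the nearest and the farthest class. Among the 525 WT-only regions under 5 kb from a KO H3K27ac region, 30.1% overlapped H3K27me3 in the female knockout list (26.3 to 34.2%) and 8.76% in the male knockout list (6.63 to 11.5%). Among the 427 at 50 kb or more, 20.4% did in the female knockout list (16.8 to 24.5%) and 15.5% in the male knockout list (12.3 to 19.2%). The WT share also rose, from 0.571% in the nearest class (0.195 to 1.67%) to 3.75% in the farthest (2.32 to 6.00%). Shares of H3K27me3 in a KO list and not in WT were not computed by distance.

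The H3K27me3 regions that met WT-only regions had higher median widths than their lists, and those of the female knockout line mostly spanned them, as at WT regions held by the male knockout list alone. In the female knockout list 485 H3K27me3 regions met the 583, with a median width of 27.4 kb, counted once per WT-only region, against 9 kb over the list. They covered 428 of the 583 from end to end, 73.4%, against 458 of 651, 70.4%, at WT regions held by the male knockout list alone. In the male knockout list the median was 10.2 kb against 5.2 kb over the list. There 113 of the 244 were covered whole, 46.3%, against 46 of 103, 44.7%, at WT regions held by the female knockout list alone. In WT, 11 of the 38 WT-only regions with H3K27me3 were covered whole. A wide region meets more places than a narrow one, and at WT regions in both KO lists the medians were 20.4 kb in the female knockout and 10.4 kb in the male knockout list. At these, H3K27me3 lay over a smaller part: a median of 50% of the width of the overlapped region in the female knockout list and 31.8% in the male knockout list, against 100 and 90.2% at WT-only regions. The regions in both KO lists were also wider, with a median of 4.6 kb against 2.8 kb, and acetylated in the KO lines by the choice of the set.

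Around the WT-only regions H3K27me3 of the female knockout line did not dip, as around the WT regions that lack female knockout acetylation alone, whereas around regions in both KO lists it did. These sets were made by KO acetylation, so the contrast between them is a description. Of the midpoints of regions in both KO lists, 98.8% lay in female knockout H3K27ac and 98.0% in male knockout H3K27ac. No WT-only midpoint did. The midpoint of a WT-only region lay in female knockout H3K27me3 in 24.2% of cases (22.4 to 26.03%), and 21.9% of positions at 40 to 50 kb to either side did. At WT regions held by the male knockout list alone these were 24.1% (22.4 to 25.9%) and 23.7%. At WT regions in both KO lists the midpoint share was 7.15% (6.74 to 7.58%) and the share at 40 to 50 kb was 20.9%. In the male knockout line the midpoints of WT-only regions had 8.32% (7.22 to 9.58%) and the flanks 11.02%, against 1.15 and 10.1% at regions in both KO lists. In WT the midpoints had 0.761% (0.469 to 1.23%) and the flanks 5.32%, against 0.225 and 6.06%. Acetylated regions of WT thus lay in a dip of H3K27me3 in WT. In the female knockout list, the midpoint differed from the flanks by 2.30 percentage points at WT-only regions (0.514 to 4.17), by 0.338 points at regions held by the male knockout list alone and by -13.8 points at regions in both KO lists. In the male knockout list it differed by -2.70 points at WT-only regions (-3.81 to -1.44), by -3.11 points at regions held by the female knockout list alone and by -8.99 points at regions in both KO lists. The intervals of these differences are the Wilson limits of the midpoint share less the flank share, taken as fixed. They leave out the error of the flanks and the pairing of midpoint and flanks. Among WT-only regions of at least the median count the intervals included 0, at 4.43 points (-0.757 to 10.2) in the female knockout and -3.98 points (-7.00 to 0.169) in the male knockout list. For H3K4me3, WT-only midpoints had 2.38% in female knockout, 3.33% in male knockout and 9.80% in WT, and the flanks 6.34, 4.95 and 6.87%.

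**Figure D4:**
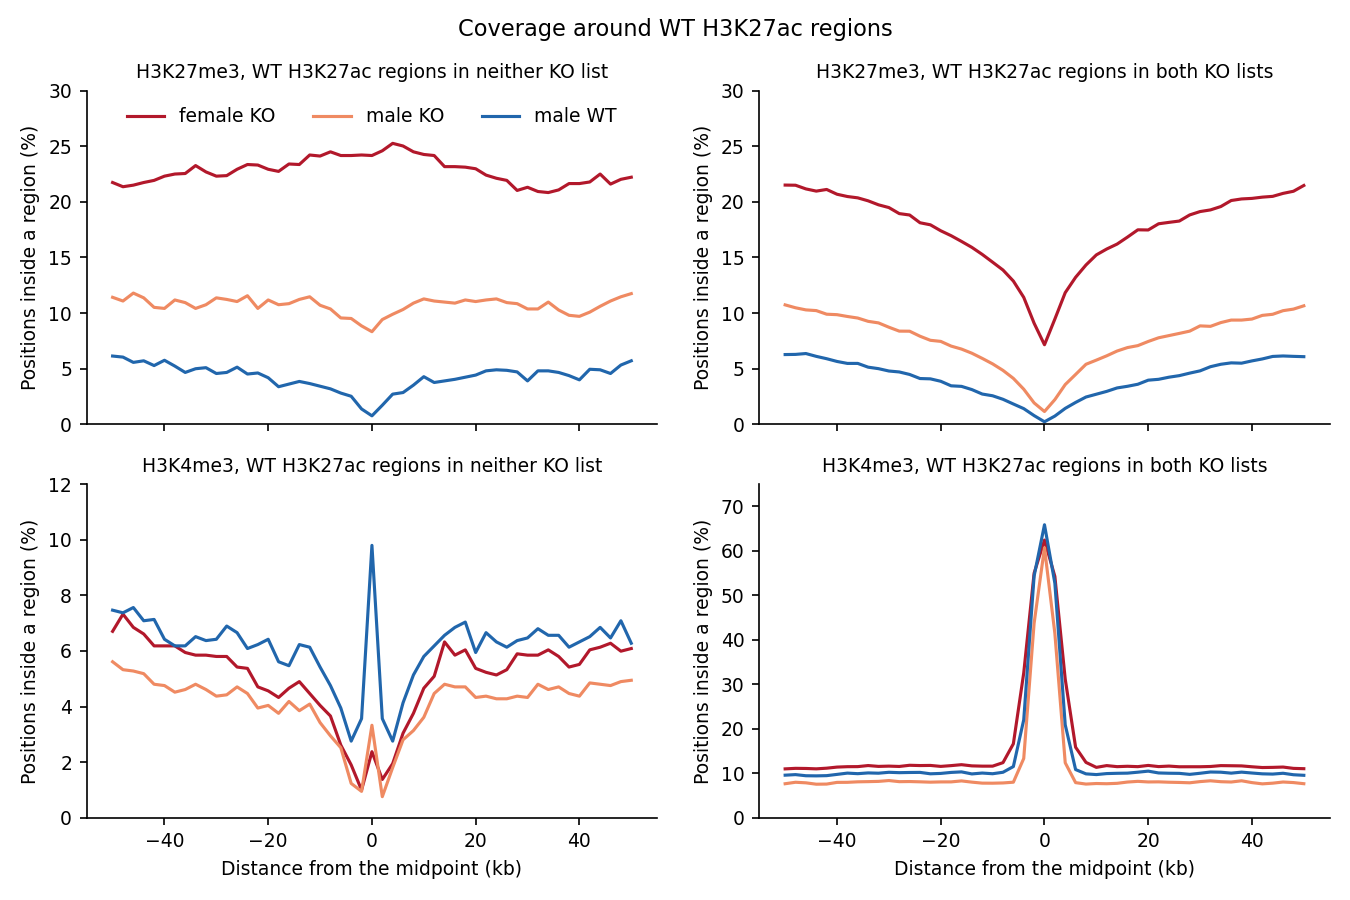
Percentage of positions inside an H3K27me3 (top) or H3K4me3 region (bottom) of each line, against the distance in kb from the midpoint of WT H3K27ac regions in neither KO list (left, n = 2103) and in both KO lists (right, n = 14200); the vertical scales of the lower panels differ. Female knockout H3K27me3 is at 24.2% of the midpoints of WT-only regions, with no dip, and falls to 7.15% at the midpoints of regions in both KO lists.

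The WT-only region with the most reads lay on chromosome 1 from 75005201 to 75020600 and held 811 H3K27ac reads over 15.4 kb in WT, 52.7 reads per kb. The nearest KO acetylation was 45.6 kb away in the female knockout list and 48.4 kb in the male knockout list. H3K27me3 covered all 15.4 kb in the female knockout line, within a region of 117 kb and 112 reads per kb, and 3.6 kb in the male knockout line. Next to it, another WT-only region from 74993801 to 74999600 had the highest density of the set, 58.3 reads per kb, and held the strongest H3K4me3 of the regions named here. That H3K4me3 region had 1942 reads over 8.4 kb in WT, 231 reads per kb, against 40.8 reads per kb over 2.6 kb in the female knockout line and 66.8 over 3.4 kb in the male knockout line. All 5.8 kb of the WT-only region were in H3K27me3 in both KO lists. In WT an H3K27me3 region of 1968 reads ended 21.9 kb before the centre of the 15.4 kb region, short of both acetylated regions.

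**Figure D5:**
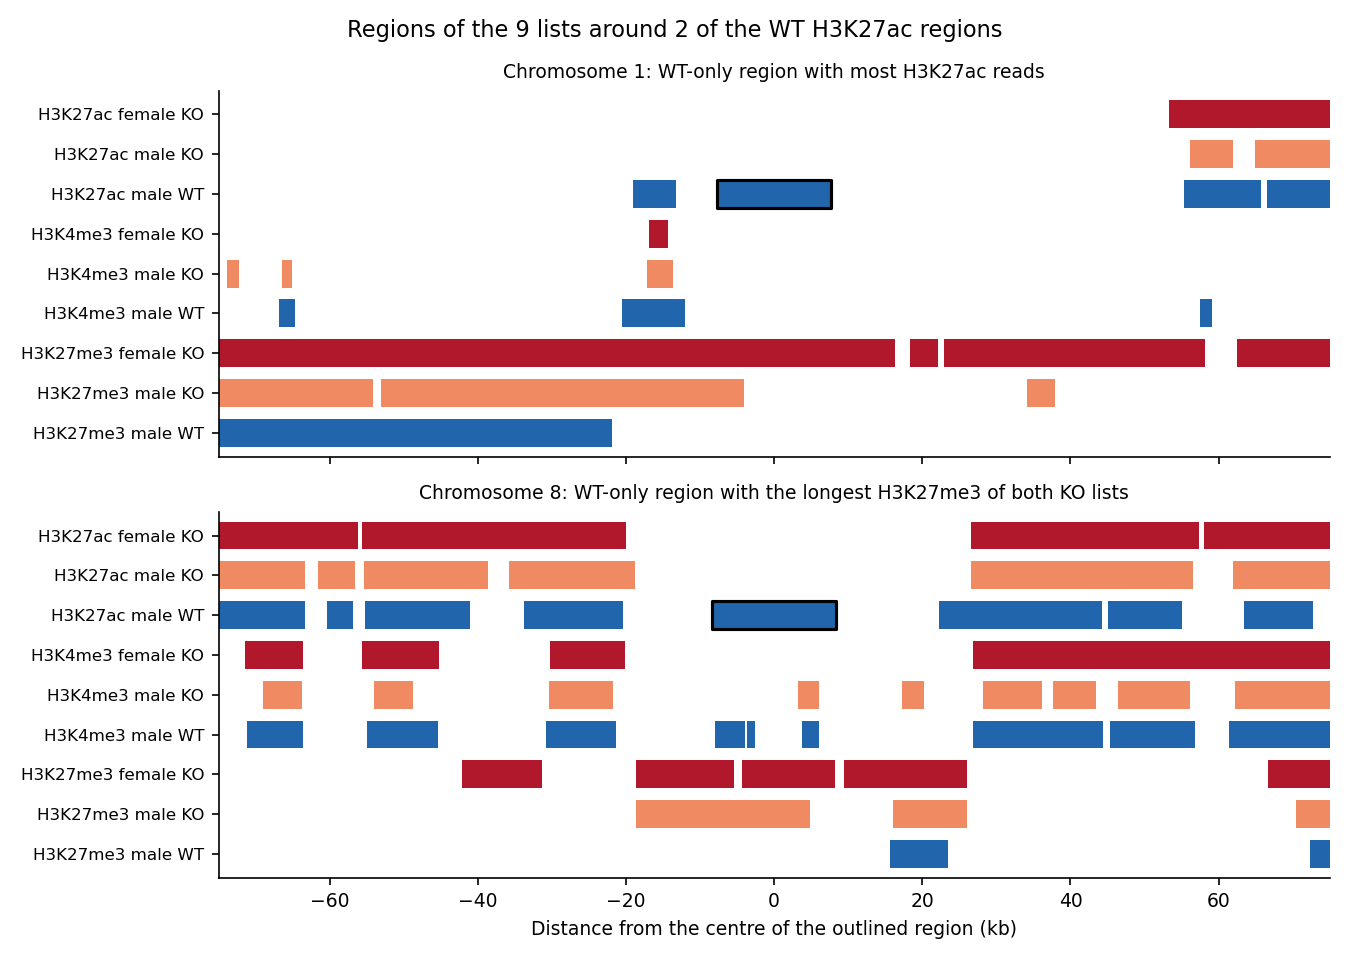
Regions of the 9 lists (rows) within 75 kb of the centre of the WT-only region with most reads (top, chromosome 1) and of the one with the longest H3K27me3 of both KO lists (bottom, chromosome 8); the x axis is distance in kb and the outlined bar is the WT-only region. In the top panel WT H3K27me3 ends 21.9 kb before the centre and female knockout H3K27me3 runs on to 16.3 kb after it; in the bottom panel both KO lists hold H3K27me3 over the outlined region and WT does not.

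The region with the longest H3K27me3 of both KO lists lay on chromosome 8 from 73241001 to 73257800. It held 505 H3K27ac reads over 16.8 kb in WT. H3K27me3 covered 15.6 kb in the female knockout line, 13.2 kb in the male knockout line and none in WT, and 12.2 kb were covered in both KO lists. H3K4me3 covered 2.8 kb in the male knockout line and 7.2 kb in WT, and none in the female knockout line. KO acetylation resumed 11.6 kb away in the female knockout and 10.4 kb away in the male knockout list, in regions of 4558 reads and 2307 reads, and the nearest WT region there held 869 reads. The gap in the KO H3K27ac lists at this place was thus local, between acetylated regions that the lists of all 3 lines held.

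The next 4 regions by length of H3K27me3 in both KO lists and not in WT were covered whole in the female knockout line. On chromosome 3 from 88253201 to 88263000, all 9.8 kb were covered in both, by H3K27me3 regions of 2851 reads in the female knockout and 400 reads in the male knockout line, and H3K4me3 of 180 reads was present in WT alone. On chromosome 9 from 57957601 to 57967000, all 9.4 kb were covered in both, within a female knockout region of 232 kb and 109 reads per kb and a male knockout region of 22.2 kb. On chromosome 7 from 136812801 to 136821200, 8.4 kb were covered in the female knockout line and 7.6 kb in the male knockout line, and the nearest KO acetylation was 76 kb away in each list. On chromosome 2 from 91866601 to 91877400 the whole 10.8 kb were covered in the female knockout and 7.8 kb in the male knockout line, although KO acetylation lay 1.6 kb away in each list. These 4 regions had between 18.7 and 24.0 H3K27ac reads per kb in WT, unlike the pair on chromosome 1. That is within the quartiles of the WT-only regions, 17.3 and 24.4 reads per kb.

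Other long WT-only regions carried no H3K27me3 in any line. The region on chromosome 10 from 51885201 to 51901800 held 757 H3K27ac reads over 16.6 kb in WT, with the nearest KO acetylation 50.2 kb away in the female knockout and 19.2 kb in the male knockout list, and no H3K4me3. The region on chromosome 3 from 84396601 to 84409800 held 545 reads over 13.2 kb, with H3K4me3 over 2.8 kb in the female knockout, 3 kb in the male knockout line and 7.8 kb in WT. The H3K4me3 region with the longest overlap had 37.5 and 54 reads per kb in the female and male knockout lines and 95.3 in WT. On chromosome 5 from 44499201 to 44511200, 541 reads lay over 12 kb, and on chromosome 14 from 9193001 to 9203600, 488 reads over 10.6 kb. Both had H3K4me3 in WT alone, with 60 and 64 reads in the region of longest overlap, and KO acetylation began within 5 kb of each. The region on chromosome 7 from 114821801 to 114836400 was long, 14.6 kb, but thin, at 18.7 reads per kb, and 1241 kb from the nearest female knockout acetylation.

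In 2 long regions H3K27me3 was in the female knockout line alone. On chromosome 1 from 132714001 to 132732600, the widest of the set at 18.6 kb with 631 reads in WT, 17.4 kb lay in an H3K27me3 region of 625 reads, 34.3 reads per kb, close to the median of that list, 34.7. On chromosome 12, the regions from 109908001 to 109920600 (480 reads) and from 109923201 to 109934600 (321 reads) were neighbours. Female knockout H3K27me3 covered all 11.4 kb of the second and none of the first. Among the densest WT-only regions, one on chromosome 6 (121114801 to 121119200) and one on chromosome 10 (126586401 to 126594200) had 53.6 and 50.6 H3K27ac reads per kb, with H3K27me3 over 4.4 and 4 kb in the female knockout line and none in the male knockout line or WT. The region on chromosome 5 from 125074601 to 125077800 had 52.8 reads per kb, no H3K27me3, and KO acetylation 0.8 kb away in the female knockout and 1 kb away in the male knockout list. High density in WT was therefore found with and without H3K27me3 in the KO lines.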

How the data were processed

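H3K27ac, H3K4me3 and H3K27me3 were profiled in 3 lines, with 1 library per mark and line. The submitters' processing notes name Bowtie 1.1.2, SICER 1 and build mm9. SICER builds regions out of adjacent windows rich in reads. The authors' deposited lists give each region's borders and a whole number, read here as a count of reads from its values and the usual SICER format, since the lists have no header. Depth of the libraries, their control and the false discovery rate were not given in the sources used here. The reads in regions grow with the length called and limit precision: a library with more of them can list weaker regions.

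Lists were used unfiltered on chromosomes 1 to 19. Overlap was at least 1 bp. The density is the count over the width. The KO to WT ratio used bins of 200 bp shared by all 3 lists, with counts spread evenly over each region. Tools were Python 3.11.15, pandas 2.3.3, numpy 2.4.6, matplotlib 3.10.9 and scipy 1.17.1, and bedtools 2.31.1 gave the same 7 of 7 overlap counts. Tested on simulated data, 200 of 200 planted H3K27ac losses and 200 of 200 planted H3K27me3 regions were recovered. Losses were planted by taking out the overlapping KO regions, and H3K27me3 by adding the borders of WT-only regions to the list. Such recovery checks the code alone, since neither reads nor the calling of regions were simulated. Positions are 1-based mm9. Regions were named by rule: the longest, those with most reads or the highest density, those with the longest H3K27me3 of both KO lists or H3K4me3 in WT alone, and the windows with most of them. The longest runs were chosen after their values were seen. Alternatives changed the overlap, the margin, the joining, the count or width of WT regions and the chromosomes. Others cut the KO lists at the lowest WT count or density after scaling by the KO to WT ratio. The WT-only regions, rules and alternatives were chosen with earlier results of these data known. Gene tables of another build were not used to name regions, and no sequence was read.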

Additional observations from a re-analysis of the deposited data

Results flagged for a closer look

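On chromosome X, which the rule leaves out, 88 of the 577 WT H3K27ac regions were in neither KO list, 15.3% (12.55 to 18.4%), against 10.6% on chromosomes 1 to 19. It is listed because the comparisons do not use it and the number is above the limit that a count of 0 allows. The KO lists held 529 regions on chromosome X in the female knockout line and 633 in the male knockout line. Among chromosomes 1 to 19 the share of WT regions in neither KO list ran from 6.02% on chromosome 14 to 16.2% on chromosome 1. The 15.3% of chromosome X lay within this range.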

How the results depend on the processing

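No paired analysis was possible because each group has 1 sample, so no replicate could be left out either. Of 17 results, 13 alternatives gave 126 values within the counting interval of the reported value, or for the number of WT-only regions within 1.5 times of it, and 44 outside, and no difference changed sign. The depth alternatives left most KO lists nearly whole, so most of their values could hardly move. By count, 17972 of 17972 female and 23317 of 23322 male knockout H3K27ac regions stayed. The largest cut, by density, kept 14371 of 19387 female knockout H3K27me3 regions. The part of depth in the results was not tested. The number of WT-only regions ran from 1563 to 2409, apart from 271 below. Among WT regions of at least the median count, 271 were WT-only, with medians of 6.6 kb and 26.98 reads per kb. Of these, 44.6% had no KO H3K27ac within 12500 bp and 26.9% had H3K4me3 in WT. H3K27me3 was at 36.9% in female knockout, 15.1% in male knockout and 1.11% in WT, and at 35.8% and 14.0% in female knockout and male knockout without WT, which is 19.6 and 10.2 points above the other WT regions. The midpoints differed from the flanks by 4.43 points in female knockout, -3.98 in male knockout and -5.10 in WT. With the flanks taken as fixed, the intervals include 0 in both KO lines. With KO cover under 50% taken as absence, the median width was 3.2 kb, 46.0% lay over 12500 bp from KO acetylation, no longer a majority, and 4.36, 6.10 and 15.4% had H3K4me3 in female knockout, male knockout and WT. Without WT-only regions under 5 kb from KO acetylation, 70.8% lay over 12500 bp from it. With regions closer than 1 kb joined, 55.1% did, and WT midpoints were -4.93 points from the flanks. With a mark required over 50% of the region, H3K4me3 was at 2.09, 3.14 and 7.89% and H3K27me3 at 24.7, 8.94 and 0.856% in female knockout, male knockout and WT; H3K27me3 without WT was at 23.9% in female knockout, 13.8 points above other WT regions, and 8.08% in male knockout. With the mark at the midpoint, H3K4me3 was at 2.38, 3.33 and 9.80% and H3K27me3 at 24.2, 8.32 and 0.761%; H3K27me3 without WT was at 23.4% in female knockout, again 13.8 points above, and 7.56% in male knockout. With KO lists of the mark cut to the WT density, an alternative chosen after seeing the data, H3K27me3 was at 25.3% in female knockout, and at 23.5% without WT. Within 2 to 4 kb of width the female knockout difference was 12.3 points. The cause was not tested in any of these.

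With 1 library per line, no value shows how much lines of the same genotype differ. A list holds what passed its caller in that library, so absence from a list is not absence of the mark.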

Other observations

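The share of WT H3K27ac regions that were WT-only differed between chromosomes. It was highest on chromosome 1, where 256 of 1580 regions were WT-only, 16.2% (14.5 to 18.1%), followed by chromosome 10 with 14.1% (12.3 to 16.2%). It was lowest on chromosome 14, with 42 of 698 regions, 6.02% (4.48 to 8.03%), and chromosome 11, with 6.41% (5.25 to 7.82%). Chromosomes 1 and 10 had low shares of WT-only regions with H3K27me3 in a KO line and not in WT, 18.4 and 19.6% in the female knockout line and 5.86 and 4.17% in the male knockout line, beside 25.9 and 9.84% over all WT-only regions. The share in the female knockout line was lower still on chromosomes 14 (14.3%, 6.72 to 27.8%) and 13 (14.8%, 7.96 to 25.7%), where the shares of WT-only regions were also low. Chromosomes 5 (15.3%) and 18 (16.5%) were lower too, but with WT-only shares of 12.4 and 14.0%, against 10.6% on chromosomes 1 to 19. The share in the female knockout line was 39.5% on chromosome 4 (29.6 to 50.4%) and 38.7% on chromosome 9 (29.96 to 48.2%).

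The windows of 1 Mb with most WT-only regions were on chromosome 2 from 24000001 to 25000000, with 14 of 35 WT regions, chromosome 10 from 43000001 to 44000000, with 11 of 31, and chromosome 15 from 75000001 to 76000000, with 11 of 32. H3K27me3 overlapped 3, 3 and 2 of these in the female knockout list, 0, 0 and 4 in the male knockout list, and 0 in WT in each window.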
